A study of Mus musculus with 52 samples.

Results

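Collagens are the triple-helical proteins that give the extracellular matrix its strength, and the genes for their chains were followed through spinal cord, cerebral cortex and muscle of mice carrying the C71G mutant of human PFN1, a model of amyotrophic lateral sclerosis. Members were taken by symbol alone, as Col followed by a number, the letter a and a number, and no measured value enters that rule. The family and its classes were chosen with earlier results of these data known. The rule found 44 of the 55401 mouse gene rows of the count table. By class they were 11 fibrillar, 6 basement membrane, 9 fibril-associated, 6 beaded filament (type VI), 3 network-forming, 4 transmembrane and 3 other collagens (Col7a1, Col26a1, Col28a1), with 2 multiplexins.

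Polyadenylated RNA of powdered tissue was sequenced in 52 libraries, in 3 arms per tissue. Wild-type FVB/NJ mice (genotype label FVB_WT) given vehicle gave 6 cord, 5 cortex and 6 muscle libraries. Transgenic mice (PFN1_C71G) given vehicle gave 6, 6 and 5, and transgenic mice given an adeno-associated virus carrying amiR_ATXN2, an artificial microRNA against mouse Atxn2, gave 6 in each tissue. All 3 arms therefore received either vehicle or virus, and both transgenic arms carry the human gene. Mice were 36 weeks old in 41 libraries and 38 or 39 weeks old in 11, and all 11 older libraries were transgenic. Both sexes were present in every group. The labels name neither the promoter of the transgene nor the muscle taken, and they do not tie tissues to animals. Replicates are separate samples of a group.

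A collagen molecule is made of 3 chains that are hydroxylated and folded in the endoplasmic reticulum, secreted, trimmed and then cross-linked. Fibrillar collagens such as types I, III and V form the cables of connective tissue, and fibril-associated collagens bind to their surface. Type IV collagen builds the sheet-like basement membrane around muscle fibres, Schwann cells and vessels, and type VI forms beaded microfilaments next to it. Transmembrane collagens sit in cell membranes, and several of them, with special type IV chains, belong to the neuromuscular junction, the synapse between motor neuron and muscle fibre. Spinal cord and cortex hold little fibrillar collagen outside vessels and meninges, whereas muscle is wrapped in it.

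Total counts ran from 66481846 to 111885231 per library, and levels are given in counts per 1000000 counts of the library (CPM). Sums of tissue markers matched the labels, although the spinal cord set was also present in muscle. Spinal cord Hox genes summed to 189.5 to 241 CPM in wild-type cord, 0 to 0.0395 in wild-type cortex and 85.9 to 117 in wild-type muscle. The 6 skeletal muscle markers summed to 101654 to 130256 CPM in wild-type muscle. Human PFN1 was at 0 in wild-type cord and at 634 to 736 CPM in vehicle-treated transgenic cord. Mouse Atxn2, the target of the microRNA, had a median of 119.6 CPM in wild-type, 109.6 under vehicle and 71.3 in treated cord, and of 54.4, 66.2 and 61.5 in muscle. In 4 cord libraries (vehicle-treated 5 and 6, treated 1 and 2) the title and the library name disagreed on treatment; the titles were used, and counts of a vector element (WPRE) were at 0 in vehicle-treated cord and at 36.5 to 77.7 CPM in treated cord. In treated muscle WPRE was at only 0.00974 to 0.0505 CPM, and in treated cortex at 27.6 to 65.0 CPM. Several libraries stood apart in markers of neighbouring tissue. In cord, the 8 Schwann cell markers summed to 1189 and 919 CPM in vehicle-treated libraries 1 and 6 and to 673 and 494 in wild-type libraries 4 and 6. The 6 adipocyte markers summed to 745 CPM in treated cord library 2, where skeletal muscle markers were also highest at 528 CPM. In muscle, the 6 tendon markers summed to 55.0 to 475 CPM (median 136) in wild type, to 230.1, 383, 411, 449.9 and 471 CPM under vehicle and to 63.9 to 699 CPM (median 288) in treated libraries. Cord and muscle results are therefore given also without the libraries at the extremes of these sums.

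CPM values were scaled by trimmed-mean factors within a tissue. Changes are log2 differences with their standard error (SE) from edgeR's quasi-likelihood test, with sex in the model and Benjamini-Hochberg adjustment over all genes tested in that tissue. A gene is said to have risen or fallen where the adjusted p was under 0.05. The tests covered 43 members in cord (Col10a1 was too low), 44 in cortex and 43 in muscle (Col6a4 was too low). In whole tissue, fewer cells of a type and less RNA per cell cannot be told apart.

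In wild-type muscle the most abundant collagens per kilobase of exon were the basement membrane pair and the main fibrillar chains. Lengths join all annotated exons of a gene and can exceed that of its main transcript, so the order between genes depends on them. Per kilobase, Col4a1 stood at 31.1 ± 7.82 CPM (mean ± SD, n = 6), Col4a2 at 30.3 ± 6.36, Col1a1 at 27.0 ± 15.2, Col3a1 at 24.2 ± 9.72 and Col1a2 at 19.1 ± 11.2. These 5 neighbours in the order overlap within their SDs. Wild-type cord was led by Col4a2 at 7.47 ± 0.859 CPM per kilobase (n = 6), the cartilage-type fibrillar chain Col11a2 at 6.47 ± 1.26, the fibril-associated Col16a1 at 6.33 ± 0.563 and Col4a1 at 4.80 ± 0.784. In wild-type cortex the first 4 were Col6a1 at 13.3 ± 1.61 CPM per kilobase (n = 5), Col4a2 at 11.6 ± 1.57, Col4a1 at 7.79 ± 0.765 and the fibril-nucleating Col5a1 at 4.99 ± 2.28. Both neural tissues thus had the type IV pair near the top, with different genes beside it.

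**Figure D1:**
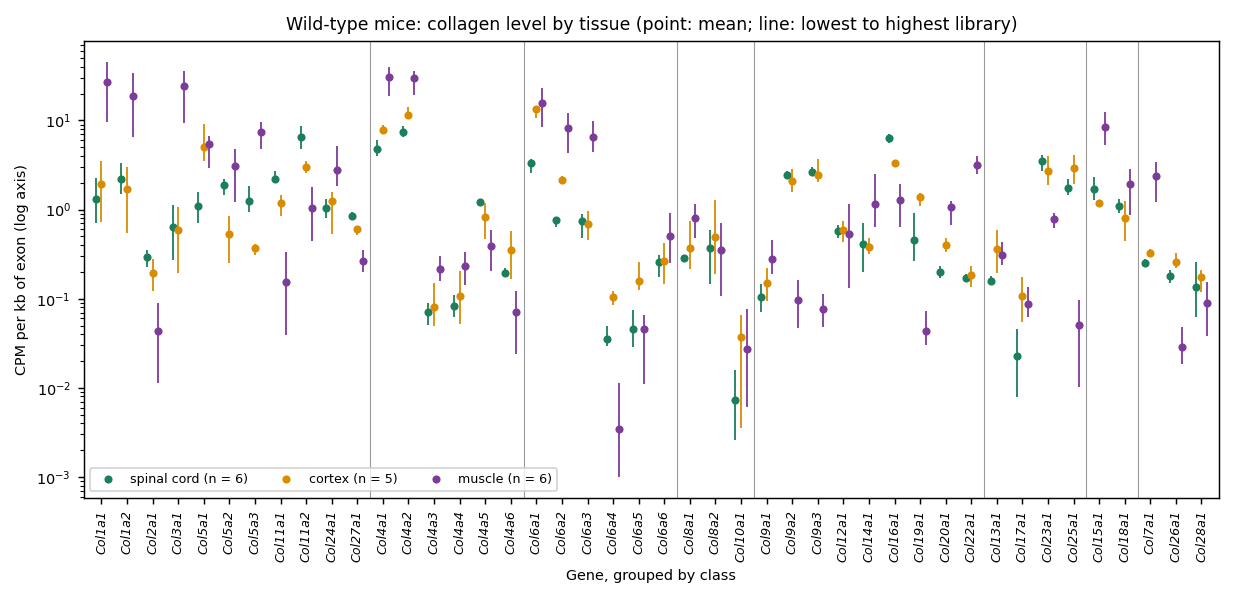
Wild-type level of each collagen gene per kilobase of exon (all annotated exons joined) in cord (6 libraries), cortex (5) and muscle (6), on a log axis. Points are means and lines run from the lowest to the highest library; a line that reaches 0.001 has a library at 0. Col4a1, Col4a2, Col1a1, Col3a1 and Col1a2 lie at the top in muscle.

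Wild-type tissues differed in most collagens, as they did in most genes. Between muscle and cord 40 members passed the test, 26 higher in muscle and 14 lower, where 88.6% of all genes tested passed (38.9% higher and 49.6% lower). Type III chain Col3a1 was higher in muscle by 5.29 on the log2 scale, Col1a1 by 4.38 and Col22a1, a collagen of the muscle-tendon junction, by 4.21. Lower in muscle were the neuronal transmembrane collagen Col25a1, with -5.17, and Col9a3, with -5.13. Between muscle and cortex 37 passed, 21 higher and 16 lower (88.8% of all genes, 38.7% higher and 50.1% lower), and between cord and cortex 23 passed, 8 higher in cord and 15 lower (64.5%, with 32.5% higher and 32.1% lower). These muscle comparisons depend on the scaling: with library sizes alone, the median of all genes moved from -0.29 to -1.57 against cord and from -0.32 to -1.59 against cortex, and the splits became 14 higher and 18 lower and 11 higher and 23 lower.

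Muscle of vehicle-treated transgenic mice held more collagen RNA of most classes than wild-type muscle. Of the 43 members tested, 25 rose and 4 fell, where 50.5% of all genes tested passed (25.7% higher and 24.8% lower). The median log2 change of the 43 was 0.66, against 0.01 over all genes. Fibrillar collagens rose in 7 of 11 and fell in 1, type VI collagens rose in 4 of 5, network-forming collagens in 3 of 3, transmembrane collagens in 3 of 4, fibril-associated collagens in 4 of 9 with 2 lower, multiplexins in 2 of 2, basement membrane collagens in 1 of 6 with 1 lower, and the other collagens in 1 of 3. With library sizes alone the median of all genes moved to 0.35, and 29 members rose and 3 fell. The summed level of all collagens was 556 to 1460.0 CPM (median 1087) in wild type, 1658, 1709, 1749, 1806 and 3378 CPM under vehicle and 787 to 1471 CPM (median 1167) in treated muscle. For 16 of the 43 no vehicle-treated library overlapped the wild type, against 28.9% of all genes.

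The genes with the largest changes in muscle were scarce in wild-type muscle. Their promoters, and those of Col13a1 and Col4a1, are shown to let a reader compare the starts of genes that moved together in muscle, a transmembrane collagen that rose in both cord and muscle, and a basement membrane gene that did not pass. Each is the 300 bases from 250 before to 50 after the start of the gene in RefSeq (build GRCm38.p6), 5′ to 3′ on the gene's strand, with capitals on the motifs searched. The RefSeq start used for Col25a1 lies 49344 bases inside the gene as GENCODE M21 draws it, so its window is that of an inner start.
Col10a1 (chr10:34389731-34390030, plus strand): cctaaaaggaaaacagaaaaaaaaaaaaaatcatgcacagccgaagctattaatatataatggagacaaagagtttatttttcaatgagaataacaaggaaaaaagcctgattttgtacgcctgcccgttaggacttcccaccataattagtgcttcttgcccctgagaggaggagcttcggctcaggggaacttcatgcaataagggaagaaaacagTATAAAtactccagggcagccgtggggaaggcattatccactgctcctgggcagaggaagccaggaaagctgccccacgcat
Col25a1 (chr3:130180595-130180894, plus strand): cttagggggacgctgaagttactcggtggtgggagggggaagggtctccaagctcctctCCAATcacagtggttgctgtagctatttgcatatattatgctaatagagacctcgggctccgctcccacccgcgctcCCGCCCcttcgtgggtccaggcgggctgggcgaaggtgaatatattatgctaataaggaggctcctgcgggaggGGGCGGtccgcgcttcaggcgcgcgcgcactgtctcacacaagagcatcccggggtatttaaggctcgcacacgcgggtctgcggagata
Col19a1 (chr1:24587388-24587687, minus strand): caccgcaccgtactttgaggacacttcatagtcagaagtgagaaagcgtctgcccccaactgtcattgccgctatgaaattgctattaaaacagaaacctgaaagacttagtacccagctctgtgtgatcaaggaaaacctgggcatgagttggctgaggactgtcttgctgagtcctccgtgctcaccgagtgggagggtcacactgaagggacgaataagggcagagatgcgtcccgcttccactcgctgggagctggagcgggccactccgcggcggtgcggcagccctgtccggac
Col13a1 (chr10:61979059-61979358, minus strand): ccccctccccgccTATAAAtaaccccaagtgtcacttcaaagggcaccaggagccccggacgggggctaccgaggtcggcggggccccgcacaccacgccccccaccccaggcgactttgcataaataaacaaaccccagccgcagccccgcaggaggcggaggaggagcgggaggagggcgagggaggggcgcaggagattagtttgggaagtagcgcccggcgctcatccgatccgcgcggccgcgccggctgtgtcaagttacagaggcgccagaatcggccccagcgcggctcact
Col4a1 (chr8:11312777-11313076, minus strand): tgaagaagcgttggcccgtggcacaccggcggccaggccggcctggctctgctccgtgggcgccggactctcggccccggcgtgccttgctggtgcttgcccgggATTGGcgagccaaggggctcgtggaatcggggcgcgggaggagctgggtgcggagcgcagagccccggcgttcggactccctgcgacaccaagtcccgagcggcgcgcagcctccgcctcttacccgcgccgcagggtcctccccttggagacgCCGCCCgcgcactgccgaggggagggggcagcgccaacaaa

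Motifs were searched on both strands. The E-box bound by muscle transcription factors was read as CAGCTG. The TATA box was read as TATAAA, the CCAAT box by its own letters, and the GC box as GGGCGG. The site of the AP-1 factors was read as TGANTCA, and none of these letter strings lies inside another. Col10a1 has TATAAA 32 to 27 bases before its start, where a TATA box usually lies. In Col13a1 the same letters lie 237 to 232 bases before the start. Col25a1 has CCAAT and 2 GC boxes, Col4a1 has CCAAT and 1 GC box, and Col19a1 has none of the 5. Over the 32851 promoters of the table, 16.3% hold CAGCTG, 13.6% TATAAA, 37.4% CCAAT, 35.7% a GC box and 7.81% the AP-1 letters. Among the 35 members with an entry, 7, 5, 13, 22 and 1 do. A member counts if any of its entries holds the letters, whereas the shares are per single promoter. As some members have more than 1 entry, these counts and shares are not like for like. The bases G and C make up 44.3% of the Col10a1 window and 74.0% of the Col4a1 window, with a median of 60.0% over these members and of 52.7% over all promoters. A match describes these letters only.

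Col10a1 (chr10:34389981-34397085, GRCm38), the network collagen of hypertrophic cartilage, lay at 0.0119 to 0.154 CPM (median 0.0411) in wild-type muscle, which is 1 to 10 counts per library. It lay at 1.33, 1.86, 2.22, 2.51 and 2.68 CPM in the 5 vehicle-treated libraries and at 0.700 to 2.74 CPM (median 2.11) in the 6 treated ones. Every transgenic library was above every wild-type library, with a change of 5.25 ± 0.45 (SE), adjusted p = 2.2e-07 in vehicle-treated muscle and of 5.18 ± 0.44 (SE), adjusted p = 4.8e-07 in treated muscle; wild-type counts this low make the fitted size depend on the prior count. Col25a1 (chr3:130131501-130599877), a transmembrane collagen that developing muscle needs for its motor innervation, lay at 0.0836 to 0.801 CPM (median 0.432) in wild type, at 2.33, 3.49, 4.39, 6.44 and 9.79 CPM in vehicle-treated and at 2.24 to 5.51 CPM (median 2.76) in treated muscle. Again no transgenic library reached down to the wild type, and the change was 3.80 ± 0.29 (SE), adjusted p = 8.6e-08.

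Col19a1 (chr1:24261890-24587472), a minor fibril-associated collagen made by neurons and embryonic muscle, lay at 0.132 to 0.319 CPM (median 0.174) in wild type and at 0.659, 1.05, 3.66, 4.11 and 4.27 CPM in vehicle-treated muscle. Treated muscle lay at 0.504 to 4.14 CPM (median 1.73). Transgenic libraries fell into a low and a high set but none overlapped the wild type, for a change of 3.38 ± 0.44 (SE), adjusted p = 1e-05. Col13a1 (chr10:61838236-61979108), the transmembrane collagen of the neuromuscular junction, lay at 0.699 to 1.28 CPM (median 0.855) in wild type, 1.46, 1.60, 1.68, 1.71 and 1.87 CPM in vehicle-treated and 1.09 to 2.16 CPM (median 1.54) in treated muscle. Vehicle-treated and wild-type libraries were apart, with a change of 0.88 ± 0.18 (SE), adjusted p = 0.0007. Col23a1, the other transmembrane collagen that rose, went from 2.25 to 3.37 CPM (median 2.85) in wild type to 6.16, 7.28, 7.71, 12.8 and 15.3 CPM in vehicle-treated muscle, and lay at 4.80 to 13.1 CPM (median 5.76) in treated muscle. It too did not overlap, with a change of 1.78 ± 0.21 (SE), adjusted p = 4e-06; Col17a1, the hemidesmosome collagen, had a change of -0.52 (adjusted p = 0.18) and did not pass.

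**Figure D2:**
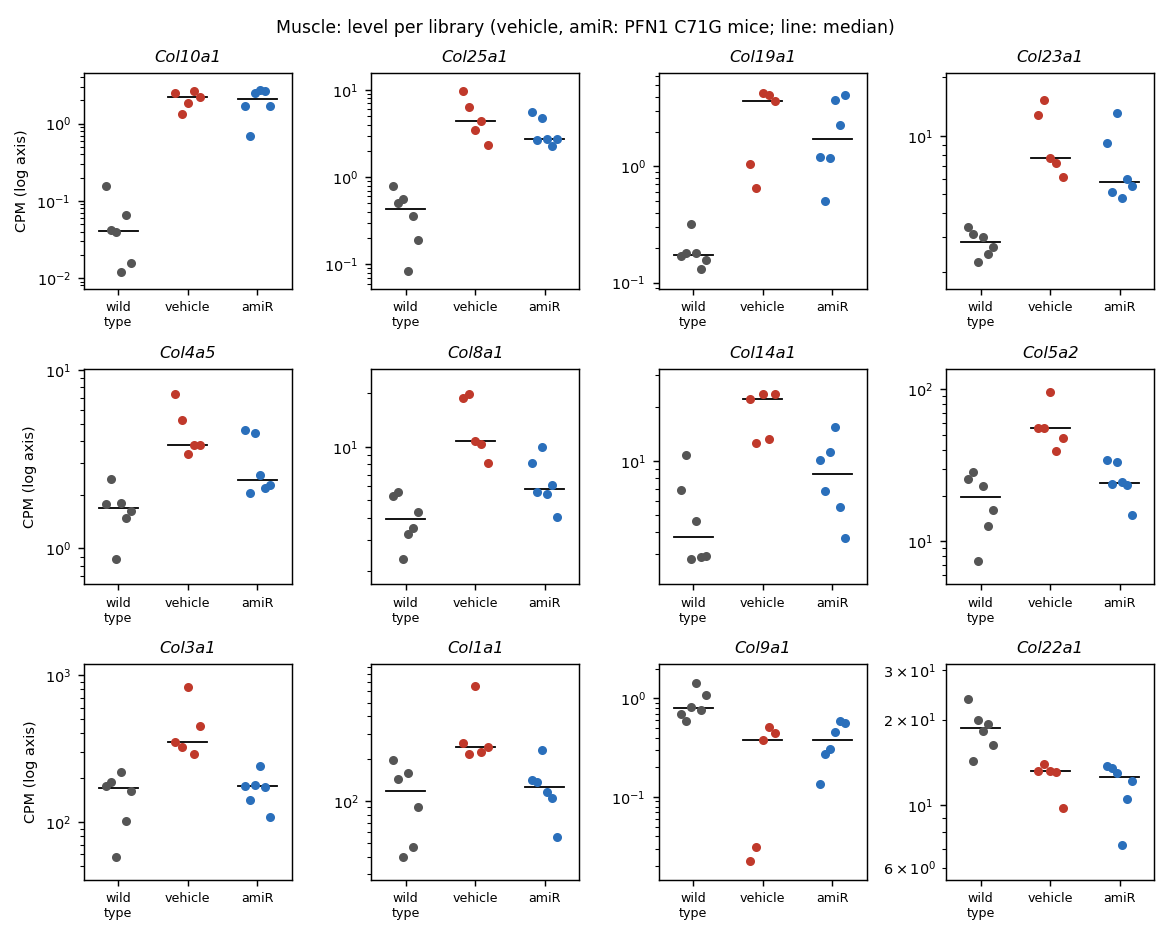
Level of 12 collagen genes in every muscle library, in CPM on a log axis, for wild-type (6), vehicle-treated transgenic (5) and treated transgenic (6) mice. Points are libraries and bars are medians. Col10a1, Col25a1 and Col19a1 of both transgenic arms lie above all wild-type points, whereas the Col1a1 points of treated and wild-type muscle overlap.

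The bulk fibrillar chains rose as well. Col1a1, the main chain of type I collagen, lay at 39.6 to 194 CPM (median 117) in wild type, at 214, 223, 243, 257 and 650.1 CPM in vehicle-treated and at 55.1 to 230.3 CPM (median 126) in treated muscle. Its partner chain Col1a2 lay at 51.3 to 271 CPM (median 148), at 268, 300.2, 301, 323 and 671 CPM and at 69.8 to 313 CPM (median 178). Vehicle-treated library 3 was the highest for both, and the changes were 1.57 ± 0.44 (SE), adjusted p = 0.0067 and 1.42 ± 0.42 (SE), adjusted p = 0.0096. Type III collagen, Col3a1, the pliable fibrillar collagen of muscle and vessel walls, lay at 57.6 to 218 CPM (median 169), at 291, 322, 352, 452 and 828 CPM and at 107 to 239 CPM (median 175). No vehicle-treated library overlapped the wild type for Col3a1, which changed by 1.53 ± 0.31 (SE), adjusted p = 0.0007.

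Type V chains, which set the diameter of type I fibrils, rose by different amounts. Col5a1 lay at 15.9 to 35.9 CPM (median 33.1) in wild type, at 38.3, 45.8, 46.9, 48.9 and 92.2 CPM in vehicle-treated and at 19.3 to 32.2 CPM (median 28.2) in treated muscle. Col5a2 lay at 7.44 to 28.4 CPM (median 19.7), at 39.0, 47.9, 55.2, 55.7 and 95.7 CPM and at 14.9 to 34.2 CPM (median 24.2). Both were apart from the wild type in every vehicle-treated library, with changes of 0.88 ± 0.22 (SE), adjusted p = 0.0037 and 1.67 ± 0.30 (SE), adjusted p = 0.00025, while Col5a3 had 0.17 (adjusted p = 0.42). Per length, the ratio of Col5a1 to Col5a2 had a median of 1.99 in wild type, 1.08 under vehicle and 1.29 in treated muscle. Col11a1, which nucleates fibrils in cartilage, lay at 0.316 to 2.71 CPM (median 0.849) in wild type, at 1.77, 4.26, 4.31, 4.37 and 14 CPM in vehicle-treated and at 0.299 to 4.46 CPM (median 1.41) in treated muscle. Its highest library was again vehicle-treated 3, the lowest overlapped the wild type, and the change was 2.60 ± 0.65 (SE), adjusted p = 0.0031. Col27a1, a fibrillar collagen of cartilage, lay at 1.65 to 2.93 CPM (median 2.02), at 2.92, 3.12, 3.17, 3.35 and 4.67 CPM and at 2.47 to 3.90 CPM (median 3.09), a change of 0.66 ± 0.17 (SE), adjusted p = 0.0042.

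A few collagens went the other way in muscle. Col24a1, a minor fibrillar collagen, lay at 8.87 to 24.9 CPM (median 9.94) in wild type, at 3.79, 6.09, 6.36, 6.57 and 7.22 CPM in vehicle-treated and at 5.93 to 12.8 CPM (median 7.63) in treated muscle, a change of -1.06 ± 0.27 (SE), adjusted p = 0.0033 with no overlap in vehicle-treated muscle. Col22a1, the collagen of the muscle-tendon junction, lay at 14.3 to 23.6 CPM (median 18.7), at 9.74, 13.1, 13.1, 13.2 and 14 CPM and at 7.21 to 13.7 CPM (median 12.6). It did not overlap either, and changed by -0.54 ± 0.14 (SE), adjusted p = 0.0039. Col9a1, a chain of cartilage type IX collagen, lay at 0.593 to 1.43 CPM (median 0.794), at 0.0223, 0.0314, 0.376, 0.443 and 0.507 CPM and at 0.137 to 0.589 CPM (median 0.378). All transgenic libraries were below the wild type, with a change of -2.14 ± 0.41 (SE), adjusted p = 0.0004. Its gene lies tail to tail with that of Col19a1, 9205 bases away, and the pair moved in opposite directions.

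Col8a1, a short-chain network collagen made by vascular cells, lay at 2.35 to 5.56 CPM (median 3.91) in wild type, at 8.11, 10.4, 10.8, 18.8 and 19.8 CPM in vehicle-treated and at 4.06 to 10 CPM (median 5.82) in treated muscle, and changed by 1.74 ± 0.21 (SE), adjusted p = 5.2e-06. Its partner Col8a2 rose by 2.14. Among fibril-associated collagens, the fascia and tendon collagens Col12a1 and Col14a1 rose by 2.02 and 1.97, and Col16a1 by 1.3. Type VI collagen, whose loss causes congenital muscular dystrophy, rose less: Col6a1 lay at 23.4 to 64.8 CPM (median 40.6) in wild type, at 51.0, 63.5, 67.5, 71.8 and 117 CPM in vehicle-treated and at 24.7 to 58.2 CPM (median 43.0) in treated muscle, with groups that overlap. Its change was 0.84 ± 0.26 (SE), adjusted p = 0.014. Col6a2 changed by 0.81 ± 0.26 (SE), adjusted p = 0.014, and Col6a3 by 0.61 ± 0.19 (SE), adjusted p = 0.014. With RNA integrity as a covariate, all 4 type VI calls (Col6a1, Col6a2, Col6a3 and Col6a5) ended, as did those of Col18a1 and Col28a1. The multiplexins Col15a1 and Col18a1, at the outer face of basement membranes, rose by 0.62 and 0.65.

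Basement membrane collagens of muscle are best read as pairs of neighbouring genes. The abundant Col4a1 lay at 88.0 to 184 CPM (median 153) in wild-type muscle, at 148, 176, 181, 194 and 227 CPM in vehicle-treated and at 135 to 215 CPM (median 152) in treated muscle, and Col4a2 at 81.3 to 154 CPM (median 133), 123, 143, 152, 165 and 184 CPM and 119.5 to 172 CPM (median 129.8). The groups overlap, and the changes of 0.35 (adjusted p = 0.089) and 0.28 (adjusted p = 0.12) did not pass. These genes lie head to head with their starts overlapping by 22 bases, and their ratio per length had medians of 1.02, 1.06 and 1.03 in the 3 arms. Col4a5, a chain of the synaptic and kidney basement membrane, lay at 0.877 to 2.46 CPM (median 1.69), at 3.38, 3.78, 3.79, 5.24 and 7.31 CPM and at 2.04 to 4.59 CPM (median 2.43). It rose by 1.49 ± 0.24 (SE), adjusted p = 7.8e-05, without overlap. Its head-to-head neighbour Col4a6 lay at 0.120 to 0.593 CPM (median 0.389), at 0.196, 0.279, 0.328, 0.345 and 0.383 CPM and at 0.278 to 0.631 CPM (median 0.316), and its change of -0.20 ± 0.35 (SE), adjusted p = 0.65, did not pass. The ratio of Col4a5 to Col4a6 per length was 5.18 (4.81 to 8.86) in wild type (median and range), 18 (11.7 to 31.0) under vehicle and 9.15 (4.52 to 16.7) in treated muscle. Col4a3, another chain of the synaptic basement membrane, lay at 0.974 to 1.86 CPM (median 1.32), at 0.458, 0.541, 0.844, 0.993 and 1.07 CPM and at 0.642 to 1.24 CPM (median 1.03) and fell by 0.90 ± 0.15 (SE), adjusted p = 0.00011. Its neighbour Col4a4 lay at 0.957 to 2.22 CPM (median 1.47), 0.715, 0.745, 1.33, 1.72 and 1.89 CPM and 1.03 to 2.2 CPM (median 1.46) and did not pass, at -0.40 (adjusted p = 0.093). Of the Col4a3 exons, 5.65% of the bases are shared with another gene.

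Markers of other cells moved beside these collagens in muscle. Of 9 fibroblast markers 6 rose, and their sum was 414 to 977 CPM (median 616) in wild type, 861, 903, 992, 1047 and 1141 CPM under vehicle and 434 to 1033 CPM (median 738) in treated muscle. All 6 macrophage markers rose, with sums of 9.90 to 38.0 CPM (median 21.8), 59.7, 61.5, 64.4, 64.9 and 66.2 CPM and 21.3 to 51.7 CPM (median 39.9). Tendon markers rose in 5 of 6, satellite cell markers in 4 of 4, and 2 of 3 cartilage markers tested rose, while 5 of 6 markers of the muscle fibre itself fell, from a sum of 101654 to 130256 CPM (median 121123) in wild type to 56689.5, 57622, 68205, 69216 and 81103 CPM in vehicle-treated muscle. Endothelial markers fell in 3 of 8. None of the fibroblast, tendon or macrophage markers was at 0 in a whole arm. The part of these cells in the collagen changes was not tested. Without the 4 libraries low in tendon markers (wild-type 3, 5 and 6, treated 6), a choice made after the data were seen, 20 members passed, 14 higher and 6 lower. The share of all genes passing in this refit is not given. Only wild-type libraries 1, 2 and 4 remained, so fewer libraries and the markers cannot be told apart. Wild-type libraries 3, 5 and 6 were also the lowest of their arm in summed collagen, at 556, 737 and 942 CPM. Those kept had 1460, 1309 and 1232 CPM, and treated library 6 was the lowest treated one. Leaving them out thus also selects on collagen level, so smaller changes in this refit say nothing about the markers. Col1a1 then changed by 0.95 (adjusted p = 0.074) and Col1a2 by 0.78 (adjusted p = 0.083), and type VI Col6a1 by 0.43 (adjusted p = 0.17), while Col10a1 (4.95), Col25a1 (3.90), Col19a1 (3.25), Col3a1 (1.09) and Col4a5 (1.35) still passed. Leaving out vehicle-treated library 3, the highest in type I collagen, left 25 members past the threshold, and Col6a1, Col6a2, Col18a1 and Col28a1 were no longer among them.

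Muscle of treated mice was compared with both other arms; both comparisons of transgenic vehicle muscle share its 5 libraries. Against vehicle-treated muscle, 3 of 43 members passed, all lower (1.12% of all genes passed, 0.767% higher and 0.354% lower): Col3a1 with -1.36 ± 0.31 (SE), adjusted p = 0.047, Col5a1 with -0.98 ± 0.23 (SE), adjusted p = 0.047, and Col8a1 with -1.08 ± 0.21 (SE), adjusted p = 0.031. The median over the 43 was -0.21, against 0.00 over all genes. Of the 43, 12 were above 0 and 22 had an unadjusted p under 0.05. Shares of all genes at these marks were not taken, so the 12 and 22 are not read as a result. The treated and vehicle-treated libraries of Col3a1 and Col5a1 did not overlap, nor did those of Col5a2, where 2.33% of all genes tested did not overlap. These calls rest on few libraries: none was left without vehicle-treated library 1, 2, 3 or 4 or treated library 2, 5 or 6, and other settings gave 0 to 8. Col1a1 had -1.38 ± 0.44 (SE), adjusted p = 0.12, and Col1a2 -1.16 ± 0.42 (SE), adjusted p = 0.15. The scarce genes were -0.07 for Col10a1 (adjusted p = 0.93), -0.15 for Col19a1 (adjusted p = 0.86) and -0.64 for Col25a1 (adjusted p = 0.17), none of which passed.

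Against wild type, treated muscle had 13 of 43 members past the threshold, 9 higher and 4 lower, where 35.2% of all genes passed (17.5% higher and 17.7% lower); with library sizes alone, which moves the median of all genes from 0.00 to 0.20, 11 were higher and 2 lower. Higher were Col10a1 (5.18), Col19a1 (3.23), Col25a1 (3.16), Col23a1 (1.31), Col28a1 (1.11), Col13a1 (0.81), Col4a5 (0.81), Col8a1 (0.67) and Col27a1 (0.52). Lower were Col9a1 (-1.32), Col22a1 (-0.69), Col24a1 (-0.66) and Col4a3 (-0.49). The Col24a1 call ended in 7 of 12 runs that left out 1 library (wild-type 1, 3 or 6, treated 1, 3, 4 or 6), with RNA integrity as a covariate, without older mice and with library sizes alone. RNA integrity as a covariate also ended Col4a5, Col8a1 and Col27a1, leaving out sex as a term Col4a3, Col8a1 and Col9a1, older mice left out Col27a1 and Col28a1, and the libraries low in tendon markers left out Col4a5, Col13a1, Col24a1, Col27a1 and Col28a1. The bulk chains did not pass, with 0.19 ± 0.41 (SE), adjusted p = 0.75 for Col1a1, 0.17 ± 0.29 (SE), adjusted p = 0.69 for Col3a1, and -0.03 ± 0.25 (SE), adjusted p = 0.94 for Col6a1. Treated and wild-type libraries of these bulk chains overlap over most of their range, whereas those of Col10a1, Col19a1, Col25a1 and Col23a1 do not overlap at all, as held for 14.4% of all genes tested.

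Collagens also rose in spinal cord of transgenic mice, 8 of them among those raised in muscle. Of 43 members tested 15 rose and 2 fell, where 36.8% of all genes passed (18.8% higher and 17.9% lower). With library sizes alone, 17 were higher and 0 lower, and the median of all genes moved from 0.00 to 0.10. The median change of the members was 0.35, against 0.00 over all genes. Fibril-associated collagens rose in 6 of 9 and fell in 1, fibrillar collagens rose in 3 of 11, basement membrane collagens in 2 of 6 with 1 lower, transmembrane collagens in 2 of 4, multiplexins in 1 of 2 and the other collagens in 1 of 3; of 6 type VI and 2 network-forming collagens none passed. The 8 raised in both tissues (Col12a1, Col13a1, Col16a1, Col18a1, Col23a1, Col27a1, Col4a5 and Col5a1) were 53.3% of the 15 in cord and 32% of the 25 in muscle. These shares stand against 25 of 43 members raised in muscle and 15 of 43 in cord. An overlap beyond those shares was not tested. For 11 of the 43 no vehicle-treated library overlapped the wild type, against 22.9% of all genes.

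Col16a1, the abundant fibril-associated collagen of this tissue, lay at 52.8 to 67.1 CPM (median 59.6) in wild-type cord, at 124 to 149 CPM (median 144) in vehicle-treated and at 82.2 to 140.3 CPM (median 119.7) in treated cord. Both transgenic arms were above every wild-type library, with changes of 1.22 ± 0.11 (SE), adjusted p = 5.6e-07 and 0.94 ± 0.11 (SE), adjusted p = 1.6e-05. Col13a1, whose promoter is given above with its distant TATAAA, lay at 0.916 to 1.19 CPM (median 1.00) in wild type, at 2.76 to 4.98 CPM (median 3.57) in vehicle-treated and at 1.32 to 5.03 CPM (median 2.23) in treated cord. It had the largest change among the collagens that passed in cord, 1.90 ± 0.27 (SE), adjusted p = 3.7e-05, and no transgenic library overlapped the wild type. Col20a1, a fibril-associated collagen, lay at 1.25 to 1.72 CPM (median 1.47), at 2.64 to 4.44 CPM (median 3.09) and at 1.89 to 3.37 CPM (median 3.12), a change of 1.17 ± 0.15 (SE), adjusted p = 1.3e-05 that also left no overlap with the wild type.

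Other collagens of cord moved less. Col12a1 lay at 10.4 to 14.7 CPM (median 12.4) in wild type, at 15.9 to 33.4 CPM (median 23.9) in vehicle-treated and at 13.6 to 33.9 CPM (median 18.7) in treated cord, a change of 0.95 ± 0.21 (SE), adjusted p = 0.0019. Col9a3 lay at 13.3 to 16.4 CPM (median 14.4), at 19.9 to 24.2 CPM (median 22.1) and at 14.5 to 23.1 CPM (median 20.5), a change of 0.60 ± 0.10 (SE), adjusted p = 0.0001. Neither overlapped between vehicle-treated and wild-type libraries, and of the Col9a3 exon bases 6.07% are shared with Tcfl5. The ratio of Col9a3 to its partner Col9a2 per length was 1.03 (0.935 to 1.33) in wild type, 1.42 (1.28 to 1.88) under vehicle and 1.5 (0.989 to 1.54) in treated cord. Col22a1 lay at 2.04 to 2.48 CPM (median 2.24), at 2.49 to 3.30 CPM (median 2.81) and at 1.75 to 2.77 CPM (median 2.25), and rose by 0.34 ± 0.10 (SE), adjusted p = 0.0096, opposite to its fall in muscle. The transmembrane Col23a1 rose by 0.41, Col9a1 by 0.55, the anchoring fibril collagen Col7a1 by 0.35 and the multiplexin Col18a1 by 0.53.

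**Figure D3:**
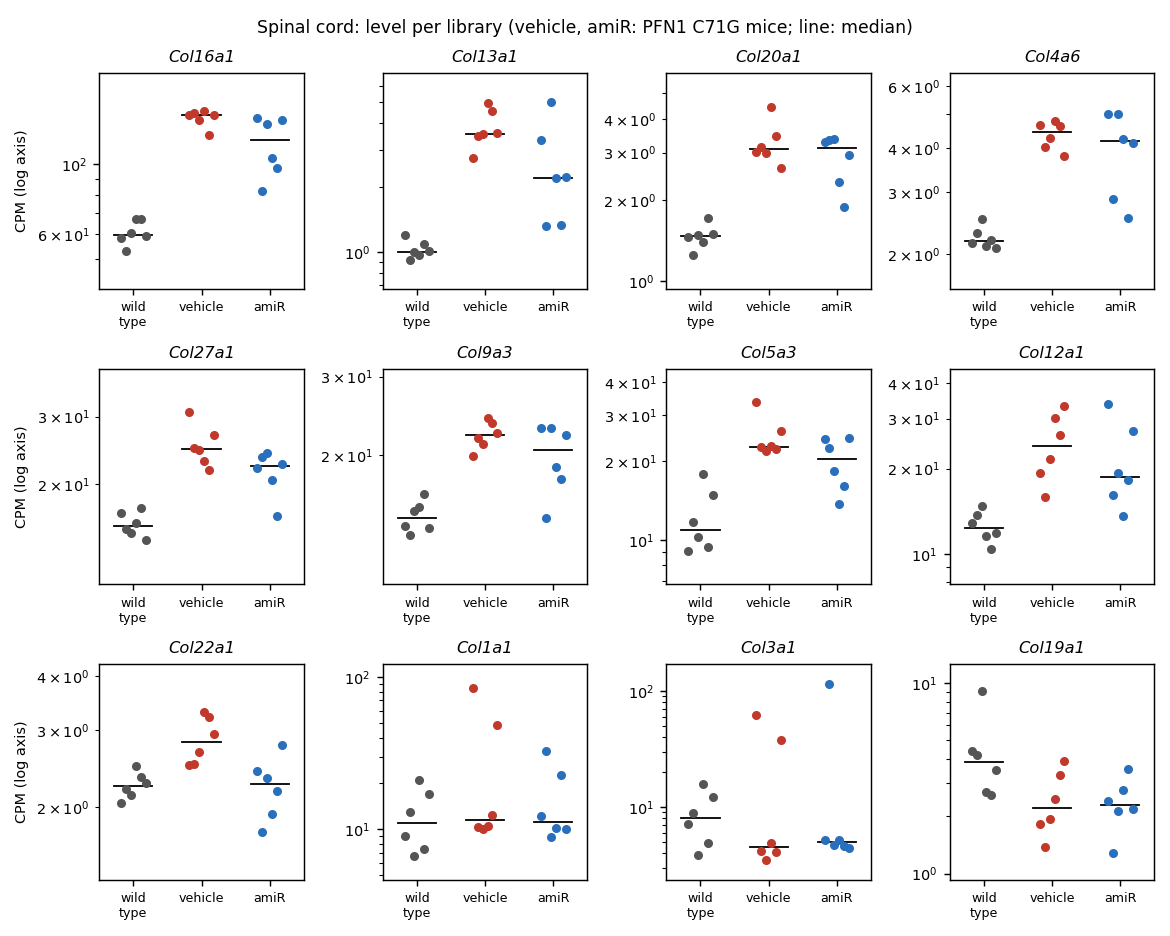
Level of 12 collagen genes in every spinal cord library, in CPM on a log axis, for wild-type, vehicle-treated transgenic and treated transgenic mice (6 libraries each). Points are libraries and bars are medians. All transgenic points of Col16a1 and Col13a1 lie above the wild type, while the highest Col1a1 and Col3a1 values come from vehicle-treated libraries 1 and 6 and treated library 2.

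Among fibrillar collagens of cord, Col5a3 lay at 9.05 to 17.9 CPM (median 10.9) in wild type, at 21.8 to 33.7 CPM (median 22.7) in vehicle-treated and at 13.7 to 24.4 CPM (median 20.4) in treated libraries. Vehicle-treated libraries were all above the wild type, and the change was 1.03 ± 0.18 (SE), adjusted p = 0.0003. Col27a1 lay at 14.3 to 17.4 CPM (median 15.5), at 21.8 to 30.8 CPM (median 24.7) and at 16.6 to 24.1 CPM (median 22.3), also apart, with 0.68 ± 0.08 (SE), adjusted p = 9.3e-06. Col5a1 lay at 8.57 to 19.2 CPM (median 11.9), at 15.3 to 37.1 CPM (median 16.8) and at 12.1 to 17.5 CPM (median 15.1); its groups overlapped, and the change was 0.79 ± 0.24 (SE), adjusted p = 0.017. Leaving out vehicle-treated library 6 ended the Col5a1 call.

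The chains of types I and III did not pass in cord. Col1a1 lay at 6.64 to 21.0 CPM (median 11.0) in wild type, at 10 to 85.1 CPM (median 11.5) in vehicle-treated and at 8.89 to 32.7 CPM (median 11.2) in treated cord. Col1a2 lay at 26.4 to 58.8 CPM (median 35.4), at 29.9 to 147 CPM (median 34.2) and at 35.2 to 63.7 CPM (median 39.5), and Col3a1 at 3.85 to 15.8 CPM (median 8.03), 3.54 to 62.3 CPM (median 4.57) and 4.48 to 113 CPM (median 5.00). The medians of the 3 arms lie close together for both type I chains, and that of Col3a1 was lower in the transgenic arms. The high values come from vehicle-treated libraries 1 and 6 and treated library 2, which had raised Schwann cell or adipocyte markers. Wild-type libraries 4 and 6 also had raised Schwann cell markers. Their summed Col1a1, Col1a2 and Col3a1 were 95.6 and 76.5 CPM, against 295 and 187 CPM in vehicle-treated libraries 1 and 6. Fitted changes were 1.24 ± 0.57 (SE), adjusted p = 0.098, for Col1a1, 0.69 ± 0.38 (SE), adjusted p = 0.17, for Col1a2 and 0.96 ± 0.95 (SE), adjusted p = 0.46, for Col3a1. Without the 5 libraries high in those markers (wild-type 4 and 6, vehicle-treated 1 and 6, treated 2), a choice made after the data were seen, they were 0.22 (adjusted p = 0.6), -0.01 (adjusted p = 0.94) and -0.55 (adjusted p = 0.077). In every arm the libraries left out were also the highest in summed Col1a1, Col1a2 and Col3a1. The refit thus removes the high values themselves and cannot separate them from the markers. Col28a1, a collagen of peripheral nerve, lay at 8.40 and 6.72 CPM in vehicle-treated libraries 1 and 6 and at 0.435 to 1.81 CPM in wild type, and its fitted change of 1.66 ± 0.73 (SE), adjusted p = 0.088, became -0.29 (adjusted p = 0.38). Without mice older than 36 weeks, Col1a1 and Col1a2 passed, at 1.61 (adjusted p = 0.029) and 0.99 (adjusted p = 0.049). That setting leaves out vehicle-treated libraries 2 and 3, both of 39 weeks. It also leaves treated libraries 2 and 3 out of the same fit, and it keeps vehicle-treated libraries 1 and 6. Why the 2 genes passed in this setting was not tested. With the 5 libraries left out 16 members passed, 14 of them among the 17. Col9a1, Col18a1 and Col23a1 were lost and Col6a5 and Col9a2 gained. The share of all genes passing in this refit is not given, so the 16 is given as a count only. Col16a1 (1.24), Col13a1 (2.08), Col5a3 (1.19) and Col20a1 (1.25) were close to their values over all libraries.

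Of the basement membrane collagens in cord, Col4a6 lay at 2.08 to 2.51 CPM (median 2.17) in wild type, at 3.78 to 4.75 CPM (median 4.44) in vehicle-treated and at 2.52 to 4.99 CPM (median 4.18) in treated libraries. Col4a5 lay at 11.0 to 12.2 CPM (median 11.4), at 12.7 to 18.7 CPM (median 16.4) and at 10.4 to 17.2 CPM (median 14.5). Both were apart from the wild type in vehicle-treated cord and rose by 0.97 ± 0.14 (SE), adjusted p = 4.2e-05 and 0.48 ± 0.11 (SE), adjusted p = 0.0018, so that their ratio per length moved the other way than in muscle, from 6.09 (5.76 to 6.50) to 4.46 (3.26 to 5.43). Col4a3 lay at 0.721 to 1.27 CPM (median 1.00), at 0.484 to 0.913 CPM (median 0.735) and at 0.717 to 1.03 CPM (median 0.831), a change of -0.49 ± 0.17 (SE), adjusted p = 0.03, in overlapping groups; it no longer passed without any single one of wild-type libraries 1, 3 and 6 and vehicle-treated libraries 1, 2 and 4. Its neighbour Col4a4 lay at 0.929 to 1.66 CPM (median 1.12), 1.08 to 2.13 CPM (median 1.5) and 1.21 to 1.94 CPM (median 1.51) and had 0.35 (adjusted p = 0.15). Col4a1, at 42.3 to 64.2 CPM (median 49.6), 34.8 to 68.9 CPM (median 44.5) and 35.7 to 101 CPM (median 37.8), and Col4a2, at 60.9 to 81.6 CPM (median 70.2), 48.7 to 75.8 CPM (median 59.6) and 46.2 to 97.6 CPM (median 58.0), overlapped in all arms and did not pass, at -0.16 (adjusted p = 0.61) and -0.26 (adjusted p = 0.18). Type VI chains did not pass either, with 0.33 for Col6a1, 0.27 for Col6a2 and 0.44 for Col6a3.

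Col25a1 and Col19a1, which rose most in muscle after Col10a1, did not rise in cord. Col25a1 lay at 26.7 to 41.2 CPM (median 30.8) in wild-type cord, at 20.5 to 40.8 CPM (median 28.8) in vehicle-treated and at 25.3 to 40.6 CPM (median 34.9) in treated cord, in overlapping groups, a change of -0.14 ± 0.16 (SE), adjusted p = 0.53. Without the 4 libraries with conflicting labels it passed, at -0.36 (adjusted p = 0.039). Col19a1 lay at 2.58 to 9.11 CPM (median 3.86), at 1.38 to 3.91 CPM (median 2.2) and at 1.28 to 3.53 CPM (median 2.30). It fell by 0.89 ± 0.33 (SE), adjusted p = 0.043 in overlapping groups, and did not pass without any single one of wild-type libraries 1, 2 and 3 or vehicle-treated libraries 1 to 4. Microglial and macrophage markers rose in 4 of 6 in cord, with sums of 99.0 to 141 CPM (median 112.1) in wild type, 412 to 501 CPM (median 438) under vehicle and 200.1 to 514 CPM (median 315) in treated cord, and none was at 0 in a whole arm. Of 8 Schwann cell markers 1 rose and of 9 fibroblast markers 2, near the 18.8% of all genes that rose. The summed tendon markers were 35.1 to 42.9 CPM in wild-type and 63.7 to 101 CPM in vehicle-treated cord; 1 of 5 tested rose (Fmod) and 4 fell. Cartilage markers summed to 47.1 to 57.1 CPM and 28.4 to 34.4 CPM, with 2 of 5 higher (Comp and Matn3) and 2 lower (Acan and Hapln1). Neither sum overlapped between these arms. The part of all these markers in the collagen changes was not tested.

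Treatment moved few collagens of cord, again against the same 6 vehicle-treated libraries as above. Between treated and vehicle-treated cord 2 of 43 passed, both lower (5.11% of all genes passed, 2.92% higher and 2.19% lower): Col6a4, a type VI chain, with -0.70 ± 0.18 (SE), adjusted p = 0.034, and Col22a1 with -0.35 ± 0.10 (SE), adjusted p = 0.045. Both calls were absent without vehicle-treated library 1, 2, 3 or 5 or treated library 2, 4 or 5, and 0 to 5 members passed in the other settings. The median over the 43 was -0.23, with 8 above 0 and 15 at an unadjusted p under 0.05. No share of all genes was taken for these marks either, so they are given as counts only. Col16a1 had -0.27 ± 0.11 (SE), adjusted p = 0.15, and Col13a1 -0.59 ± 0.26 (SE), adjusted p = 0.19. Against wild type, 12 of 43 passed in treated cord, 9 higher and 3 lower, where 25.5% of all genes passed (14.6% higher and 11% lower). Higher were Col13a1 (1.32), Col20a1 (0.96), Col16a1 (0.94), Col4a6 (0.83), Col12a1 (0.77), Col5a3 (0.71), Col9a3 (0.45), Col27a1 (0.45) and Col4a5 (0.31). Lower were Col19a1 (-0.93), Col24a1 (-0.79) and the type VI chain Col6a6 (-0.58). Some of these calls were unsteady: leaving out 1 library at a time ended Col4a5 in 9 of 12 runs and Col19a1 in 8 of 12, and RNA integrity as a covariate ended Col4a5. Leaving out the 4 libraries with conflicting labels ended Col5a3, Col6a6 and Col19a1, and leaving out those high in Schwann cell or adipocyte markers ended Col6a6 and Col19a1.

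In cortex no collagen passed the test in any comparison. Between vehicle-treated transgenic and wild-type cortex 0 of 44 passed with edgeR (0.0247% of all genes), 0 had an unadjusted p under 0.05, and DESeq2 also called 0. Between treated and vehicle-treated cortex 0 passed (0.0197% of all genes), 3 had an unadjusted p under 0.05, and DESeq2 called 0. Between treated and wild-type cortex 0 passed (1.12% of all genes), 6 had an unadjusted p under 0.05, and DESeq2 called 2, both lower. Shares of all genes at that unadjusted p were not taken. Col15a1, the multiplexin of vessels and muscle, lay at 9.29, 9.59, 10.2, 10.7 and 11.3 CPM in wild-type cortex, at 7.32 to 12.3 CPM (median 9.30) in vehicle-treated and at 6.94 to 8.46 CPM (median 7.90) in treated cortex. Treated and wild-type libraries did not overlap for it alone among the 44, where 4.73% of all genes did not, and its difference was -0.39 ± 0.12 (SE), adjusted p = 0.085. Named genes that passed elsewhere had small values between transgenic and wild-type cortex: Col13a1 0.12, Col25a1 0.23, Col19a1 -0.19, Col1a1 0.39, Col3a1 0.49 and Col6a1 0.13.

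**Figure D4:**
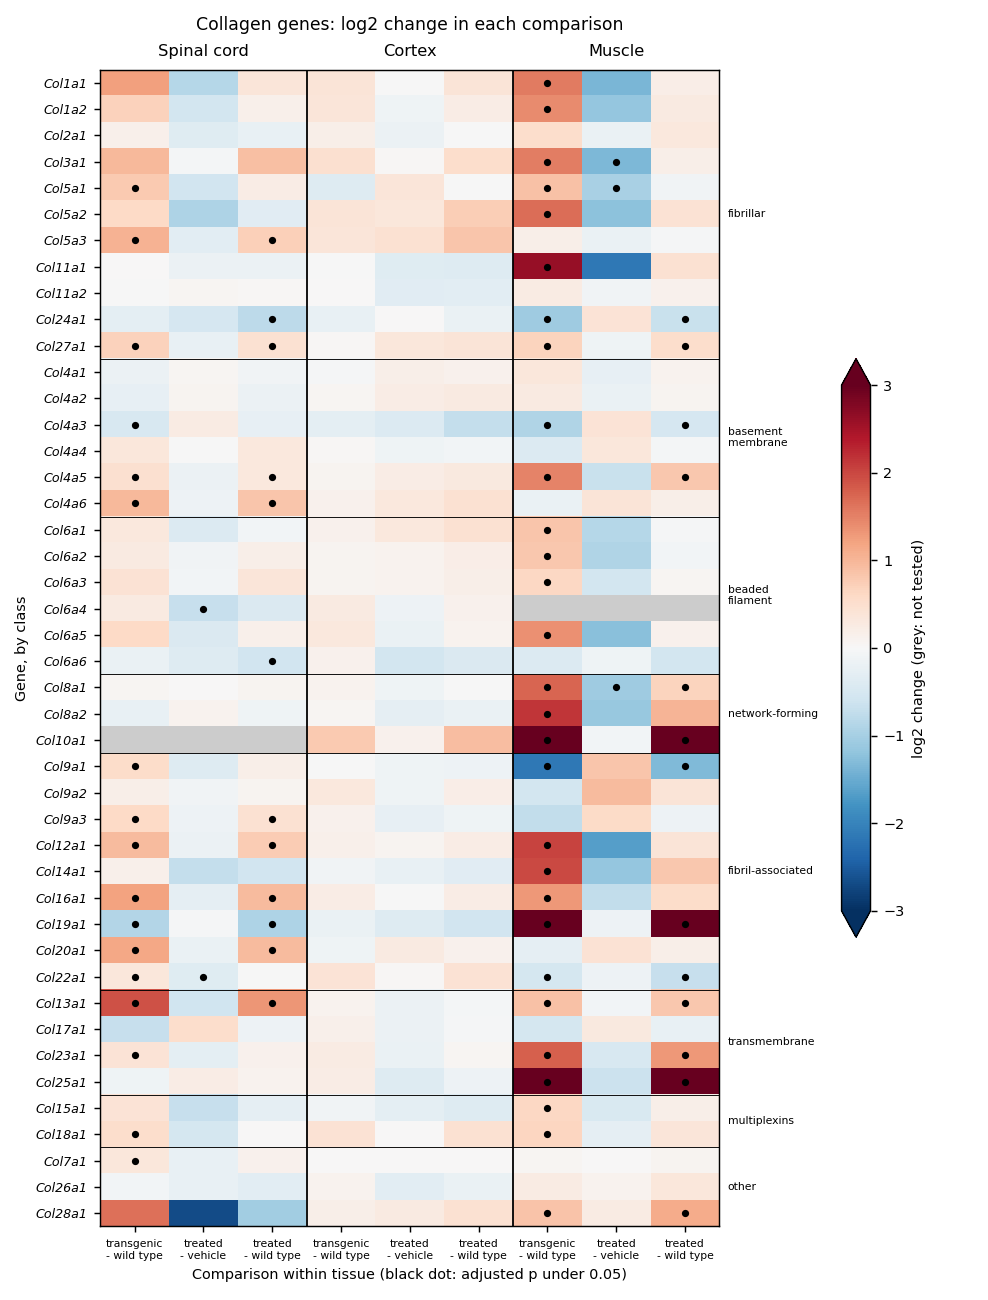
Log2 change of each collagen gene in 9 comparisons (3 tissues by vehicle-treated transgenic minus wild type, treated minus vehicle-treated, and treated minus wild type), grouped by class. Dots mark adjusted p under 0.05 and grey cells genes too low to test, and colours run from -3 (blue) to 3 (red). Dots are dense in muscle and cord against wild type, sparse between treated and vehicle-treated mice, and absent in cortex.

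The tissues were compared directly by the difference of their transgenic-minus-wild-type changes in 1 model of all libraries. Between cord and muscle, 16 members differed, 6 more positive in cord and 10 more positive in muscle, where 31% of all genes differed (14.5% and 16.5%). Col10a1 had -4.74 ± 0.96 (SE; adjusted p = 0.00012), Col19a1 -4.31 ± 0.53 (adjusted p = 1e-08) and Col25a1 -3.95 ± 0.31 (adjusted p = 6.7e-14), all more positive in muscle. Col10a1 was too low to test within cord, at 0.0115 to 0.0705 CPM in wild type and 0.0108 to 0.0928 CPM in vehicle-treated mice, so its difference rests on muscle. Likewise the difference of Col6a4, -1.83, includes muscle libraries at 0 to 0.0616 and 0.0103 to 0.190 CPM, too low to test there. Col9a1 had 2.68 ± 0.44 (adjusted p = 4.1e-06) and Col20a1 1.40 ± 0.25 (adjusted p = 1.5e-05), both more positive in cord. The Col4a5 and Col4a6 neighbours went apart, with -1.04 and 1.15. With library sizes alone, which moved the median of all genes from -0.03 to -0.21, 4 were more positive in cord and 14 in muscle.

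Between cord and cortex 4 members differed, all more positive in cord, where 9.68% of all genes differed (5.45% more positive in cord and 4.23% in cortex): Col13a1 with 1.77 ± 0.41 (SE; adjusted p = 0.0032), Col20a1 with 1.28 ± 0.25 (adjusted p = 0.00028), Col5a1 with 1.15 ± 0.34 (adjusted p = 0.024) and Col16a1 with 0.97 ± 0.27 (adjusted p = 0.014). Between cortex and muscle 16 differed, 2 more positive in cortex and 14 in muscle, where 27.7% of all genes differed (12.7% and 15%). Col5a2 (-1.28), Col12a1 (-1.89) and Col14a1 (-2.09), all fibrillar or fibril-associated, were among the 14. Col1a1, Col1a2 and Col3a1 did not pass this test between any pair of tissues.

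**Figure D5:**
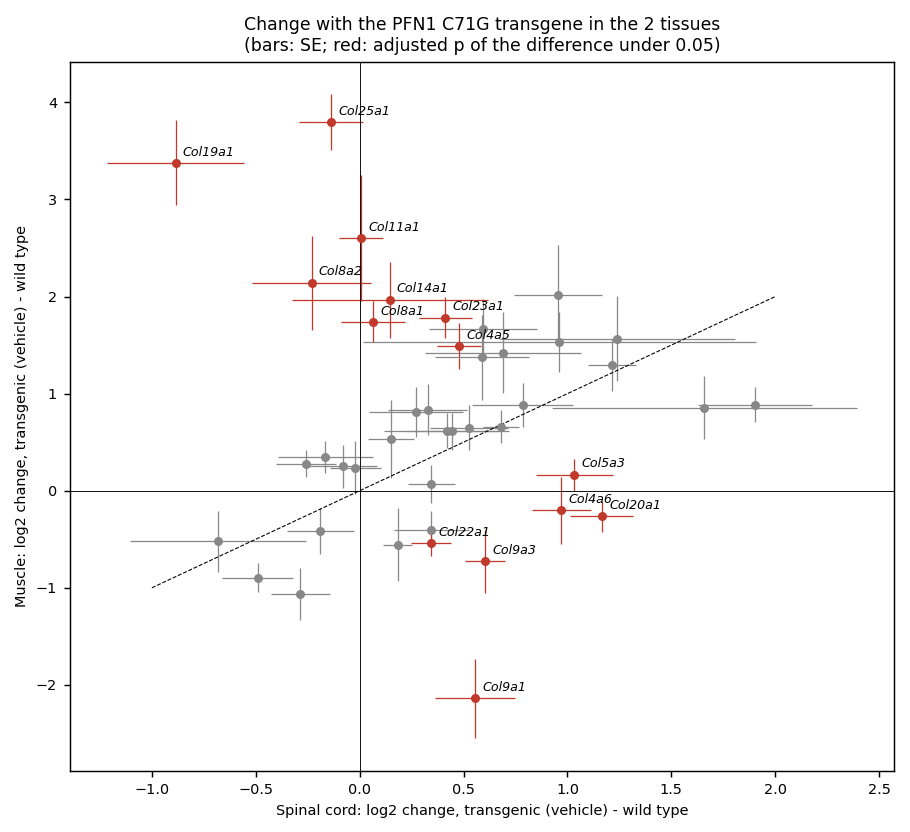
Log2 change between vehicle-treated transgenic and wild-type mice in cord (horizontal) against muscle (vertical), 1 point per collagen gene tested in both. Bars are SE and the dashed line marks equal change; red, named points differed between the tissues in the joint model (adjusted p under 0.05). Col19a1 and Col25a1 lie high for muscle near or under 0 for cord, Col9a1 and Col22a1 are below 0 in muscle and above 0 in cord, and Col13a1, Col12a1 and Col16a1 are above 0 in both.

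Genes that build, anchor and remove collagen moved beside it. Of 20 genes for chain modification and folding, 12 rose and 3 fell in transgenic muscle, where 25.7% of all genes tested rose and 24.8% fell. Among those that rose were the prolyl hydroxylase subunit P4ha3 (3.47, adjusted p = 5e-05), the prolyl 3-hydroxylase complex member P3h4 (0.81), the lysyl hydroxylase Plod2 (1.22) and the folding factor Fkbp10 (1.06). Propeptide removal and cross-linking genes rose in 11 of 13, with the lysyl oxidases Lox at 2.18 and Loxl1 at 1.21 and the proteases Tll2 and Adamts2 at 2.09 and 0.74. Fibril partners rose in 12 of 13, among them the small proteoglycans Bgn (1.67), Aspn (1.12) and Lum (1.47) and the matricellular Postn (2.81). Receptors rose in 7 of 9, with the integrins Itgb1 (0.68) and Itga2 (1.17), the uptake receptor Mrc2 (1.15) and the kinase Ddr1 (0.49). Degradation genes rose in 6 of 7, with Mmp8 at 2.26, Mmp2 at 1.36, Mmp14 at 1.11 and cathepsin Ctsk at 1.35.

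Basement membrane partners rose in 7 of 14 in muscle and fell in 1, with the laminin chains Lamb1 (0.56) and Lamc1 (0.32) higher and the synaptic laminin Lamb2 lower (-0.24, which turned to 0.0896 with library sizes alone). Of the 13 genes around TGF-beta, a main inducer of collagen genes, 9 rose and 1 fell: Tgfb1 had 1.92, its receptor Tgfbr2 0.98, the latent binding protein Ltbp1 1.3 and Smad4 -0.43. Between treated and vehicle-treated muscle, P4ha3 (-2.17, adjusted p = 0.041), Aspn (-0.84, adjusted p = 0.045) and Loxl1 (-0.66, adjusted p = 0.031) were the genes of these 7 lists that passed.

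In cord 18.8% of all genes tested rose and 17.9% fell, and the counts of the same lists stand against these shares. Of 20 modification genes 10 rose and 1 fell (P4ha3 1.24, the glycosyltransferase Colgalt1 0.46, the cyclophilin Ppib 0.33, the disulphide isomerase P4hb 0.35), and of 13 processing genes 5 rose and 3 fell (Loxl2 1.35, Loxl3 0.76, the proteases Bmp1 0.58 and Adamts14 1.07). Fibril partners rose in 6 of 12, with Postn at 4.40, Fmod at 2.05, Prelp at 1.25 and Thbs2 at 1.27. Receptors rose in 5 of 9, with the inhibitory leukocyte receptor Lair1 at 1.17, Ddr1 at 0.54, Itga2 at 1.74 and Itgb1 at 0.32. Degradation genes rose in 3 of 7 and fell in 1: Mmp2 had 1.14, Mmp14 0.39, Mmp8 1.74 and Mmp9 -1.14. Basement membrane partners rose in 5 of 15 and fell in 1, with Nid2 at 1.32, Lamb2 at 0.44 and Lama1 at -0.55. TGF-beta genes rose in 5 of 13 and fell in 1, with Tgfb1 at 1.51, Tgfbr1 at 1.17, Tgfbr2 at 1.2 and Tgfb2 at 0.61. P4ha3, Postn, Tgfb1, Mmp2 and Mmp14 were higher in both cord and muscle, whereas Lamb2 was higher in cord and lower in muscle (in muscle not with library sizes alone).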

How the data were processed

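The authors deposited expected counts per gene from RSEM. Per the submitters' processing notes, the tools were RSEM 1.3.2, STAR 2.7.2d, DESeq2 1.34.0 and bcl2fastq 2.20, with builds GRCm38 and GRCh38; per the labels' protocols, libraries were made from polyadenylated RNA. Of the deposited expected counts 7.00% were not whole, and all were rounded. Only the 55401 mouse gene rows entered library sizes and fits; other rows (human PFN1, vector elements, spike-ins) held at most 0.167% of a library's counts. Rows were paired with symbols through GENCODE M21 for 55141 genes.

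Each tissue was fitted alone with edgeR 4.0.16 (R 4.3.3): trimmed-mean factors, filterByExpr, arm and sex as terms, quasi-likelihood F tests, and Benjamini-Hochberg adjustment at 0.05 over all genes of the tissue. Differences between tissues came from 1 model of all 52 libraries, and wild-type tissues from a model of their own. The precision of low genes is set by their counts, with totals of 66481846 to 111885231 per library; p-values measure the spread between the deposited samples. The fit was tested on simulated data with 200 changed genes. Alternatives were other factors, library sizes alone, no filter, DESeq2 1.42.0, sex left out, RNA integrity as a covariate, older mice left out, a replicate block, and libraries left out.

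The members and all gene lists were chosen with earlier results of these data known. Values by library are given, per tissue comparison, for up to 6 members with the smallest adjusted p among fibrillar, basement membrane and other collagens, and for Col1a1, Col1a2, Col3a1, Col4a1, Col4a2, Col6a1 to Col6a3, Col13a1, Col4a3 to Col4a6, Col25a1 and Col19a1 in any case; of each other list, up to 4 members that passed are named. Further genes named by change alone, the ratios of partner chains and the split by sex were chosen after their values were seen. Promoters came from RefSeq; 35 of the 44 members had an entry. Protein sequences were not used here.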

Additional observations from a re-analysis of the deposited data

Results flagged for a closer look

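In 198 groups of 5 or 6 libraries, 1 per named collagen, tissue and arm, the distance of the farthest library to its neighbour was set against the range of its group. It passed the critical ratio for that group size in 19 groups. That ratio passes about 1 in 20 only for independent groups with a normal spread. Here CPM was not logged and groups share libraries, so the 19 has no chance count to stand against.

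Treated cord library 2 was the highest for 5 collagens, with ratios of 0.993 for Col3a1 (113 CPM), 0.911 for Col4a1 (101 CPM), 0.738 for Col4a2 (97.6 CPM), 0.716 for Col6a2 (23.1 CPM) and 0.640 for Col1a2 (63.7 CPM). It is the library with adipocyte markers at 745 CPM, and it is among the 4 with conflicting labels. Vehicle-treated cord library 1, with the highest Schwann cell markers, was highest for Col6a2 (0.735) and Col5a3 (0.642). Wild-type cord library 3 was highest for Col19a1 (0.723), treated cord library 3 for Col24a1 (0.669), and wild-type cortex library 1 for Col4a3 (0.723).

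In muscle, vehicle-treated library 3 was the highest for Col1a1 (0.901, 650.1 CPM), Col1a2 (0.861, 671 CPM), Col5a1 (0.803), Col11a1 (0.787) and Col27a1 (0.755), all 5 fibrillar collagens. Its tendon markers, at 411 CPM, were at the median of its arm. Treated muscle library 2 was highest for Col4a1 (0.667) and Col4a2 (0.712), wild-type muscle library 3 for Col19a1 (0.743), and vehicle-treated muscle library 5 was lowest for Col22a1 (0.788).

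The change between vehicle-treated transgenic and wild-type mice differed between tissues for 36 pairs of a collagen and a tissue contrast (joint model, adjusted p under 0.05). For cord minus muscle the log2 differences were -1.04 for Col4a5, 1.15 for Col4a6, 0.83 for Col5a3, -1.83 for Col6a4, -1.71 for Col8a1, -2.41 for Col8a2, 2.68 for Col9a1, 1.27 for Col9a3, -4.74 for Col10a1, -2.57 for Col11a1, -1.86 for Col14a1, -4.31 for Col19a1, 1.40 for Col20a1, 0.85 for Col22a1, -1.41 for Col23a1 and -3.95 for Col25a1. For cord minus cortex they were 1.15 for Col5a1, 1.77 for Col13a1, 0.97 for Col16a1 and 1.28 for Col20a1. For cortex minus muscle they were -1.42 for Col4a5, -1.28 for Col5a1, -1.28 for Col5a2, -1.79 for Col6a4, -1.65 for Col8a1, -2.09 for Col8a2, 2.12 for Col9a1, -4.48 for Col10a1, -2.57 for Col11a1, -1.89 for Col12a1, -2.09 for Col14a1, -1.08 for Col16a1, -3.60 for Col19a1, 0.93 for Col22a1, -1.55 for Col23a1 and -3.57 for Col25a1. Col10a1 was too low to test within cord and Col6a4 within muscle, so their differences compare with libraries near 0.

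Sexes differed in 3 such changes in a model with arm and sex cells, run after the data were seen. In cord, Col19a1 changed by 0.14 in males and -1.79 in females, a difference of 1.92 (adjusted p = 0.024). Col25a1 changed there by 0.31 in males and -0.59 in females, a difference of 0.90 (adjusted p = 0.029); in this contrast 10.3% of all genes tested in cord passed. In muscle, Col9a1 changed by -1.3 in males and -4.61 in females, a difference of 3.31 (adjusted p = 0.037), where 0.112% of all genes passed. The older transgenic mice were all female in cord and muscle, so age and sex cannot be fully told apart here.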

How the results depend on the processing

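Over 326 counts of members past the threshold, 291 stayed within 1.5 times the reported count. The counts that moved were those of the treatment. In cord, treated against vehicle-treated, the reported 2 became 4 with relative log factors, 1 with library sizes alone, 0 without the low-count filter, 5 with DESeq2, 0 with RNA integrity as a covariate, 0 without older mice, 0 with the replicate block, 1 without the 4 libraries with conflicting labels, 0 without the libraries high in Schwann cell or adipocyte markers, and 0 to 4 leaving out 1 library at a time. In muscle, the reported 3 became 5 with library sizes alone, 5 without the filter, 8 with DESeq2, 0 with sex left out, 0 without older mice, 0 with the replicate block, and 0 to 3 leaving out 1 library. In cortex, treated against wild type, DESeq2 gave 2 in place of 0. The cause was not tested. 

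The labels do not say that equal replicate numbers share an animal or batch, so libraries were not paired. Deviations of same-numbered libraries correlated between -0.12 and 0.30 in cord (median 0.038). The ranges were -0.30 to 0.49 in cortex (median 0.152) and -0.21 to 0.42 in muscle (median 0.205). Libraries of unlike number were not compared, so these values do not settle whether numbers pair samples. With the replicate block muscle against wild type gave 20 members in place of 29 (without Col1a1, Col1a2, 4 type VI chains, Col15a1, Col18a1 and Col28a1) and cord 15 in place of 17. Leaving out 1 library at a time, these counts ran from 25 to 30 and from 13 to 18. RNA integrity as a covariate gave 25 in muscle. Shares of all genes passing in these settings are not given, so a loss particular to the members cannot be read from the counts. Of 320 called values of named genes, 216 passed in every alternative. With library sizes alone 10 values changed sign: Lamb2 in transgenic muscle (0.0896), muscle against cord in wild type for Col5a2 (-0.54), Col6a6 (-0.33), Col13a1 (-0.30) and Col18a1 (-0.45), and muscle against cortex for Col4a4 (-0.16), Col6a6 (-0.33), Col8a1 (-0.14), Col9a1 (-0.37) and Col24a1 (-0.15). Low counts limit Col10a1 in wild-type muscle (1 to 10 per library) and Col9a1 in vehicle-treated muscle (2 to 49). On simulated data for transgenic against wild-type cortex, the test recovered 62.7% of 1.5-fold and 85.1% of 2-fold changes.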

Other observations

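In muscle of transgenic mice, 3 of 43 collagens tested separated the sexes without overlap, where 2.91% of all genes tested did, a pattern noticed in the values and then looked for in all members and tissues; no member did so in cord or cortex (0.576% and 0.365% of all genes). Col19a1 lay at 0.504 to 1.2 CPM in the 5 female transgenic libraries and at 2.27 to 4.27 CPM in the 6 male ones, over both treatments. In wild-type muscle, the females lay at 0.169, 0.180 and 0.319 CPM and the males at 0.179, 0.132 and 0.157 CPM, which does not separate them. The change of Col19a1 was 4.67 in vehicle-treated males and 1.92 in vehicle-treated females (difference 2.74, adjusted p = 0.08 over all genes), so this difference did not pass. Col9a1, the tail-to-tail neighbour of Col19a1, lay at 0.0223 to 0.305 CPM in female and at 0.376 to 0.589 CPM in male transgenic muscle, and the type VI chain Col6a6 at 0.690 to 1.33 and 2.52 to 4.11 CPM. For Col6a6 the difference between the sexes of the change in vehicle-treated muscle was 0.99 (adjusted p = 0.51).

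The female transgenic muscle libraries include all 3 from mice older than 36 weeks. In the 2 female transgenic libraries of 36 weeks, Col19a1 was at 1.05 CPM (vehicle-treated) and 1.2 CPM (treated), below all 6 males of the same age, and Col9a1 at 0.0223 and 0.137 CPM, also below all 6. In cord, the fall of Col19a1 lay in the females, which were at 4.39, 4.21 and 9.11 CPM in wild type and at 1.83, 1.38 and 1.93 CPM in vehicle-treated transgenic mice. Cord males were at 2.66, 2.58 and 3.51 CPM in wild type and at 2.46, 3.28 and 3.91 CPM in vehicle-treated transgenic mice.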
